A study of Mus musculus with 6 samples.

Results

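The enzymes that build cholesterol and fatty acids were examined in mouse thyroid with and without the forkhead transcription factor gene Foxe1. The list held 36 genes, made up of 19 enzymes of sterol synthesis, 6 genes of sterol sensing and sterol transport and 11 genes of fatty acid synthesis. It was drawn up from what the genes do and matched to the arrays by symbol, with the brightest probe set taken for each gene. Of the 36, 32 were measured, each by 1 probe set, among 19505 named genes and 22206 probe sets in all. Acat2, Tm7sf2, Srebf1 and Scd2 carried no probe set named here. Both groups were mice of a C57BL/6J background that received tamoxifen at 0.05 g/kg into the abdomen on 5 consecutive days from an age of 6 to 8 weeks. The 3 knockouts were Foxe1flox/flox/Cre animals and the 3 controls carried Cre without the floxed gene, so Cre and tamoxifen were shared by all. RNA of 1 thyroid lobe per animal, taken 2 weeks after treatment, was read on 1 array each, and which promoter drives Cre was not stated in the labels.

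Cholesterol is made from acetyl-CoA through mevalonate, isoprenoid units, squalene and lanosterol. Fatty acids are built from the same acetyl-CoA, supplied by citrate cleavage, carboxylated to malonyl-CoA, joined into chains, then elongated and desaturated. The transcription factors SREBP-2 and SREBP-1 drive the sterol and the fatty acid branch respectively. When membranes hold enough sterol, INSIG proteins keep SCAP and its SREBP cargo in the endoplasmic reticulum. Follicular cells of the thyroid, adipocytes and the stratified epithelia all run these pathways, and fat cells express the fatty acid branch strongly.

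The arrays gave log2 values after RMA, a summary of several probes per transcript, so 1 unit is a doubling and levels of different genes are not compared. Array medians lay between 5.62 and 5.69, and all 32 measured members stood above the median probe set. Foxe1 measured 7.60, 7.19 and 7.04 in controls against 3.33, 2.88 and 3.04 in knockouts, a difference of -4.19 (SE 0.22, limma adjusted p = 0.000442). Thyroglobulin, Tg, read 18.67 to 19.27 on the 6 arrays, and the lobes of both groups also carried strong airway, muscle and squamous transcripts. Y-linked transcripts (Uty, Kdm5d and Eif2s3y) were low on 2 arrays, control 1 and knockout 3, with a mean of 3.04 and 2.65 against 8.03 to 8.30 on the other 4 arrays. No label states whether the mice were male or female. Values without these 2 arrays, with 2 controls and 2 knockouts left, are therefore given for some of the genes, here or in the closing section. The number of arrays limits the precision of every value.

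The promoters shown next are those of the 5 sterol enzymes that had a RefSeq entry and whose knockout arrays all stood above all controls, with Fasn, the fatty acid synthase, for the other branch. Each run holds the 250 bases before the transcription start in assembly GRCm38.p6, 5′ to 3′ on the gene's strand. Capitals mark CCAAT, the binding motif of NF-Y, a factor that works beside SREBP at sterol genes, and TCACNCCAC, a sterol regulatory element core. Both were searched on both strands, so a capital ATTGG is CCAAT on the opposite strand.
Hmgcs1 (chr13:119690101-119690350, plus strand): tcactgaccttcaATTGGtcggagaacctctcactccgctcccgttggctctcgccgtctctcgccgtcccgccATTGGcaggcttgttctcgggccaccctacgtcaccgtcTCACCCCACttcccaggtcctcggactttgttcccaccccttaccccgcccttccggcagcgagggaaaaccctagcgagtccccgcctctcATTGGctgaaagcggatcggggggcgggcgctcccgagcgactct
Cyp51 (chr5:4104698-4104947, minus strand): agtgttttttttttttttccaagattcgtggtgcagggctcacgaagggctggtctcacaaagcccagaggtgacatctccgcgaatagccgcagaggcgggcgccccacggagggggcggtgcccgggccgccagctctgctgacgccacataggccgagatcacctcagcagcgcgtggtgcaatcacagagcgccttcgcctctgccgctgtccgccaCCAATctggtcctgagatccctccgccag
Msmo1 (chr8:64733579-64733828, minus strand): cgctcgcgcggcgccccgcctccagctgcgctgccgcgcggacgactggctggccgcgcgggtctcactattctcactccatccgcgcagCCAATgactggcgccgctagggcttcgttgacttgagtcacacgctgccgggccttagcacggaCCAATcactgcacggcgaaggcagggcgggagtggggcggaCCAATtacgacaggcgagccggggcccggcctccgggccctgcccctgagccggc
Hsd17b7 (chr1:169969206-169969455, minus strand): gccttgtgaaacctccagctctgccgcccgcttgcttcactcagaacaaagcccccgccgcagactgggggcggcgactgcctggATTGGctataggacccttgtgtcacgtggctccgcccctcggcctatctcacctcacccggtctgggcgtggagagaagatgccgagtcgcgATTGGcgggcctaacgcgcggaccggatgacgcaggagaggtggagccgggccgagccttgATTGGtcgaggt
Sc5d (chr9:42264301-42264550, minus strand): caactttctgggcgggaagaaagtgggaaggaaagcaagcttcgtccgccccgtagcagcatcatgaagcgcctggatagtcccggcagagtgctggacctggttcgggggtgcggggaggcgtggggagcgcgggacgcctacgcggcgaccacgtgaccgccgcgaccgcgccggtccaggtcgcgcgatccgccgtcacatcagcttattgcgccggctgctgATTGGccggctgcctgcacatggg
Fasn (chr11:120824548-120824797, minus strand): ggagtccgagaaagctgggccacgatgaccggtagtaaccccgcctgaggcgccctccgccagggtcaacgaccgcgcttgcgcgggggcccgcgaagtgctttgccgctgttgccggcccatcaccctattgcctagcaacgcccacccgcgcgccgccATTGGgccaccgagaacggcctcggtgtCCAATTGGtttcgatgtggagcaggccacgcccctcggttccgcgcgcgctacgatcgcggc
Hmgcs1, Msmo1 and Hsd17b7 each held 3 CCAAT matches, and Cyp51 and Sc5d held 1 each. Hmgcs1 alone of these held TCACNCCAC, 137 to 129 bases before its start. Fasn also held 3 CCAAT matches, a pair of which overlap on opposite strands and print as 1 run of capitals. Of the measured sterol enzymes, 14 had an entry and 14 of these held CCAAT before at least 1 of their starts, against 37.5% of all 27025 genes with an entry. The count was 3 of 4 for sterol sensing and transport and 4 of 8 for the fatty acid branch. TCACNCCAC was found in 1 of the 14 sterol enzymes and in none of the other 12 members with an entry, against 1.22% of all genes. A match describes these letters only and was not tested as a site.

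Transcripts of the sterol enzymes tended to read higher in the knockout lobes, while no member passed the test over all probe sets. Of 17 measured sterol enzymes 15 had positive differences, with a median knockout minus control difference of 0.83, against -0.02 and 46.8% positive over all probe sets. All 3 knockout arrays stood above all 3 controls for 7 of the 17, where 9.28% of all probe sets did so. Of the 10 fatty acid genes 4 were positive, with a median of -0.36. For 1 of them, Elovl5, all knockouts stood below all controls, where 8.78% of probe sets did so, and for none did they stand above. Over all members the groups did not overlap for 9 of 32, against 18.1% of probe sets in either direction. With limma and Benjamini-Hochberg adjustment, 0 of 32 members passed an adjusted p of 0.05, which 0.338% of probe sets did (0.252% higher, 0.0856% lower). At an unadjusted p under 0.05 there were 11 members higher, 10 of them sterol enzymes, and 0 lower, against 6.61% and 6.13% of all probe sets. The 11 became 6 without control 1, 6 without knockout 3, and 6 with an ordinary t statistic. The 0 became 5 without control 2. In whole lobes, more cells that express a gene and more of its RNA per cell cannot be told apart.

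**Figure D1:**
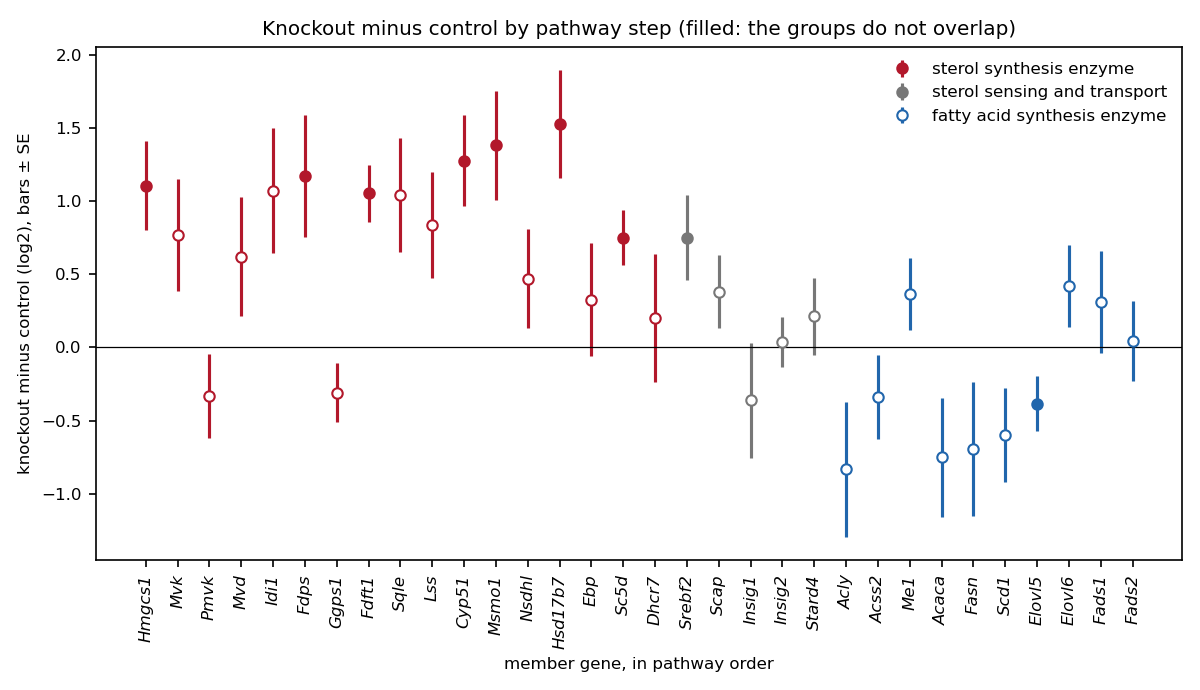
Knockout minus control difference on the log2 scale for the 32 measured members in pathway order, with bars of 1 SE from limma. Filled points are genes whose knockout and control arrays do not overlap. Sterol enzymes lie between -0.33 and 1.52 and fatty acid genes between -0.83 and 0.42.

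The first steps, from acetyl-CoA to mevalonate and its phosphates, were uneven. Hmgcs1, which condenses acetyl-CoA units into HMG-CoA, measured 13.62, 13.95 and 14.54 in controls against 14.62, 15.49 and 15.31 in knockouts. Its groups did not overlap, though control 3 and knockout 1 nearly met, and the difference was 1.10 (SE 0.30, limma adjusted p = 0.174), or 2.15-fold. Mevalonate kinase, Mvk, measured 6.26, 6.57 and 7.16 in controls against 6.66, 7.46 and 8.17 in knockouts, a difference of 0.77 with overlapping groups (adjusted p = 0.454). It was 0.40 without knockout 3, 1.15 without knockout 1 and 0.195 without the low Y-linked arrays. Mvd, the decarboxylase that makes isopentenyl diphosphate, overlapped likewise, with 6.80, 7.39 and 7.89 against 7.22, 7.94 and 8.78 (0.62, adjusted p = 0.585; 0.22 without knockout 3 and -0.06 without the low Y-linked arrays). For both genes knockout 1 lay among the controls. Pmvk, the kinase between these steps, was 1 of the 2 sterol enzymes with a negative difference. It measured 7.58, 7.16 and 7.95 in controls against 6.95, 6.99 and 7.76 in knockouts, with knockout 3 above 2 of the controls (-0.33, adjusted p = 0.701; -0.14 without control 3 and -0.59 without knockout 3).

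At the isoprenoid steps the pair that leads to squalene and the branch away from it had opposite signs. Idi1, which isomerises isopentenyl diphosphate, measured 9.53, 9.88 and 10.63 in controls against 10.12, 11.66 and 11.47 in knockouts, with knockout 1 below control 3. The difference was 1.07 (SE 0.43, limma adjusted p = 0.34). Fdps, which makes farnesyl diphosphate, measured 8.63, 9.46 and 9.80 against 9.84, 10.24 and 11.32. Its groups were set apart by 0.04 only, between control 3 and knockout 1 (difference 1.17, SE 0.41, adjusted p = 0.279). Its difference was 0.74 without knockout 3 and 0.41 without the low Y-linked arrays. Ggps1, which diverts farnesyl diphosphate to geranylgeranyl diphosphate for protein prenylation, was the other negative sterol enzyme. It measured 9.56, 9.49 and 9.49 in controls against 9.18, 9.51 and 8.92 in knockouts (-0.31, adjusted p = 0.581; -0.17 without knockout 3), and knockout 2 lay among the controls.

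The 3 squalene and lanosterol enzymes lay close together, with differences of 0.83 to 1.05. Fdft1, which joins farnesyl units into squalene, measured 12.71, 12.92 and 13.08 in controls against 13.75, 14.04 and 14.08 in knockouts. Its groups were clearly apart, with a gap of 0.67 against SDs of 0.19 and 0.18 (n = 3 each). The difference was 1.05 (SE 0.19, 95% interval 0.61 to 1.49, limma adjusted p = 0.0722), which is 2.08-fold and the smallest adjusted p of the 32 members (0.0505 to 0.358 over the alternatives tried). Sqle, the epoxidase that commits squalene to sterols, measured 8.42, 8.86 and 9.92 in controls against 9.83, 9.86 and 10.63 in knockouts. Control 3 lay inside the knockout range, and the difference was 1.04 (SE 0.39, adjusted p = 0.301), or 0.455 without the low Y-linked arrays. Lss, which closes the ring to lanosterol, measured 10.12, 10.54 and 10.94 against 10.65, 11.37 and 12.08, again with knockout 1 below control 3 (0.83, adjusted p = 0.386). The Lss difference was 0.48 without knockout 3 and 0.27 without the low Y-linked arrays.

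From lanosterol to cholesterol all 7 measured enzymes had positive differences, and for 4 of them all knockouts stood above all controls, against 9.28% of probe sets. Hsd17b7, the ketoreductase of the demethylation at carbon C-4, had the largest difference of all members. It measured 9.12, 9.74 and 10.39 in controls against 10.68, 11.36 and 11.78 in knockouts, a difference of 1.52 (SE 0.37, 95% interval 0.69 to 2.36, limma adjusted p = 0.139), or 2.87-fold. Msmo1, the oxidase of the same demethylation, measured 6.86, 8.03 and 8.26 in controls against 8.69, 9.11 and 9.49 in knockouts (1.38, SE 0.37, adjusted p = 0.165). Control 1 lay more than 1 unit below the other controls for Msmo1, and the difference without it was 0.95. Cyp51, the lanosterol demethylase, measured 10.81, 11.04 and 11.75 against 11.95, 12.65 and 12.82 (1.27, SE 0.31, adjusted p = 0.14). Sc5d, the desaturase near the end of the route, measured 13.52, 13.32 and 13.57 in controls against 13.99, 14.30 and 14.37 in knockouts. Its difference was smaller but tight, at 0.75 (SE 0.19, adjusted p = 0.15).

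The remaining 3 of these late enzymes overlapped. Nsdhl, the decarboxylating dehydrogenase of the demethylation, measured 11.98, 11.76 and 12.37 in controls against 11.80, 12.56 and 13.16 in knockouts (0.47, adjusted p = 0.622). Its difference was 0.14 without knockout 3, 0.82 without knockout 1 and 0.115 without the low Y-linked arrays. Ebp, the sterol isomerase, measured 9.23, 9.98 and 9.99 against 9.49, 9.75 and 10.94. Only knockout 3 exceeded all controls, and the difference of 0.33 (adjusted p = 0.791) became -0.11 without it. Dhcr7, the last reductase, measured 9.30, 10.73 and 10.52 against 9.64, 10.51 and 11.01. Its difference of 0.20 (adjusted p = 0.898) turned to -0.24 without control 1 and -0.11 without knockout 3.

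**Figure D2:**
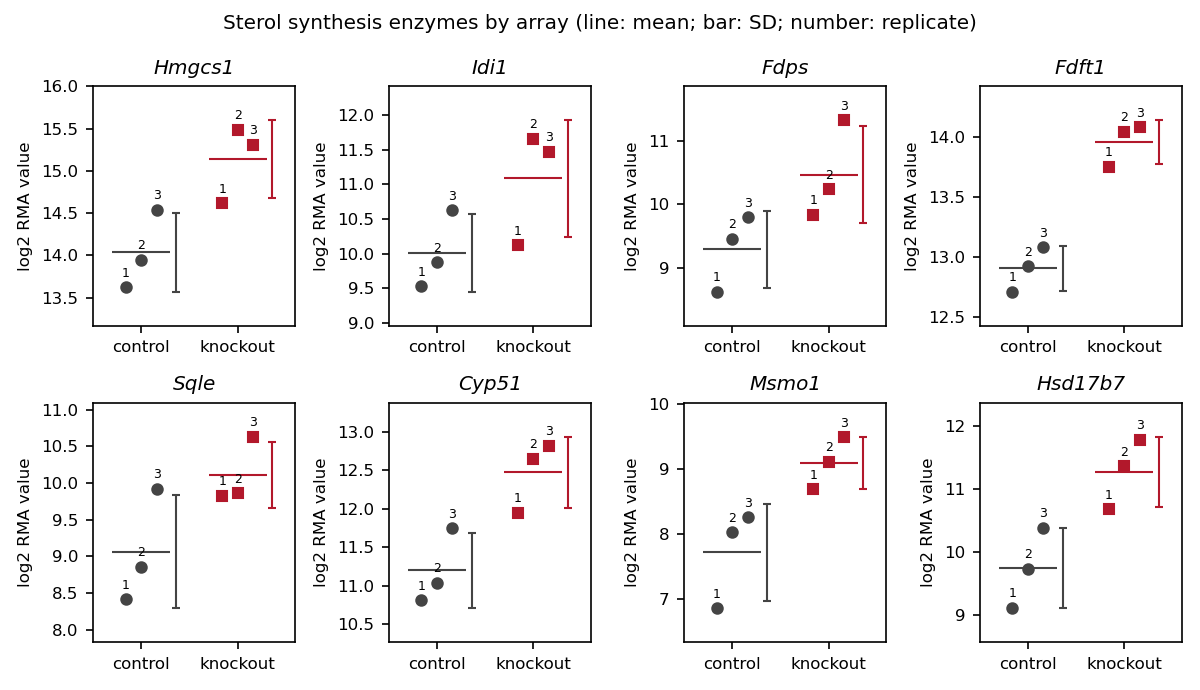
Log2 RMA values of 8 sterol synthesis enzymes on each array, with the group mean as a line, the SD as a bar and the replicate number beside each point. For Idi1 and Sqle the lowest knockout lies below control 3, and for the other 6 all knockouts lie above all controls.

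Within each group the sterol enzymes ranked the arrays alike. Control 1 was the lowest control for 13 of the 17 and control 3 the highest for 15. Knockout 1 was the lowest knockout for 16 and knockout 3 the highest for 14. Averaged over the 17 enzymes, and set relative to the control mean, the controls stood at -0.41, -0.013 and 0.42 and the knockouts at 0.24, 0.81 and 1.24. Knockout 1 thus lay below control 3, and the arm means of the groups overlapped. The spread among controls was an SD of 0.42 (n = 3), beside a mean difference of 0.76.

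The size of the sterol difference depended on control 1 and knockout 3, the arrays with low Y-linked signal. Between the 2 controls and 2 knockouts with Y-linked signal, the mean difference over the 17 enzymes was 0.32 and the median 0.41, with 12 positive. Between control 1 and knockout 3, a single pair, the mean was 1.65 and the median 1.91, with 16 positive. The 7 enzymes whose groups did not overlap differed by 0.41 to 0.95 among the arrays with Y-linked signal and by 0.85 to 2.69 in the other pair. Their sign in both sets was fixed by the way they were chosen. With the Y-linked mean as a covariate, 10 members were higher at an unadjusted p under 0.05 and 0 passed adjustment.

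The genes that sense and move sterols followed the enzymes only in part, with 4 of 5 positive and a median of 0.21, which was 0.058 without control 1 and 0.058 without knockout 3. Srebf2, which encodes SREBP-2, measured 13.03, 14.00 and 14.05 in controls against 14.36, 14.31 and 14.66 in knockouts. All knockouts were above all controls, with control 1 set low (0.75, SE 0.29, limma adjusted p = 0.318), and the difference was 0.42 without control 1 and 0.31 without both low Y-linked arrays. Scap, the SREBP escort, measured 10.62, 11.35 and 11.44 against 11.54, 11.36 and 11.65, with control 1 low again (0.38, adjusted p = 0.581), and its difference was 0.12 without that array. Stard4, a sterol carrier and SREBP-2 target, measured 7.34, 7.85 and 7.91 against 7.47, 7.96 and 8.31 (0.21, adjusted p = 0.803), with overlapping groups. Its difference was 0.03 without control 1, 0.43 without knockout 1 and 0.01 without knockout 3.

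The INSIG genes, which encode the retention proteins, had differences that were near 0 or rested on single arrays. Insig1, itself a strong SREBP target, measured 12.38, 10.95 and 11.92 in controls against 10.78, 11.85 and 11.54 in knockouts. The groups overlapped, though controls 1 and 3 lay above every knockout, with a difference of -0.36 (95% interval -1.25 to 0.53, limma adjusted p = 0.77), and -0.045 without control 1 against -0.76 without control 2. Control 1, the lowest control for most sterol enzymes, was the highest array for Insig1. Insig2 was the steadiest member, with all 6 arrays between 6.90 and 7.12 (0.04, 95% interval -0.35 to 0.43, adjusted p = 0.958). Its sign turned without control 2 (-0.0017) or knockout 1 (-0.017).

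In the fatty acid arm the enzymes that supply and build the chain had negative mean differences that rested on 2 of the controls. Acly, which cleaves citrate to acetyl-CoA, measured 15.30, 13.22 and 14.80 in controls against 13.49, 13.61 and 13.72 in knockouts. Acaca, which makes malonyl-CoA, measured 12.71, 10.91 and 12.21 against 10.95, 11.27 and 11.36. Fasn, the synthase, measured 16.62, 14.47 and 15.92 against 14.88, 15.01 and 15.04. For all 3 genes control 1 was highest and control 2 lowest, and every knockout fell between control 2 and control 3. The knockouts lay close together (SD 0.12, 0.22 and 0.085, n = 3) and the controls wide apart (SD 1.09, 0.93 and 1.10, n = 3). The differences were -0.83, -0.75 and -0.69 (limma adjusted p of 0.493 or more). Without control 1 they were -0.40, -0.37 and -0.22, and without control 2 they were -1.44, -1.27 and -1.29. The 95% interval for Fasn, -1.74 to 0.35, holds both a large decrease and a small increase.

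Other genes of this arm split between the directions. Acss2, which makes acetyl-CoA from acetate, measured 11.26, 10.61 and 11.67 in controls against 10.67, 10.71 and 11.15 in knockouts (-0.34, limma adjusted p = 0.689; -0.62 without control 2 and -0.09 without control 3). Me1, the malic enzyme that yields NADPH, measured 16.27, 15.79 and 16.64 against 16.59, 16.41 and 16.80, with a difference of 0.37 (adjusted p = 0.595), which was 0.145 without control 2 and 0.57 without control 3. Scd1, the desaturase that makes oleate, measured 19.89, 18.61 and 19.22 against 18.33, 18.89 and 18.70 (-0.60, adjusted p = 0.485), which was -0.275 without control 1 and -0.915 without control 2. The value of control 1 lies near 19.93, the highest value of all arrays. Its controls had the same order as those of Fasn.

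The elongases of the list differed in sign. Elovl5, which extends polyunsaturated chains, measured 13.25, 13.64 and 13.35 in controls against 12.89, 13.06 and 13.14 in knockouts. It was the only fatty acid gene whose groups did not overlap, at -0.38 (SE 0.19, limma adjusted p = 0.45). Elovl6, which extends palmitate, measured 15.33, 14.80 and 15.31 against 15.04, 15.66 and 16, with 2 knockouts above all controls (0.42, adjusted p = 0.588). Its difference was 0.20 without knockout 3, 0.25 without control 2 and 0.68 without knockout 1. The desaturases Fads1 and Fads2, which act on polyunsaturated chains, overlapped widely. Fads1 measured 7.98, 9.10 and 9.01 against 8.51, 9.02 and 9.49 (0.31, adjusted p = 0.779; -0.048 without control 1). Fads2 measured 10.38, 10.68 and 11.02 against 10.64, 10.34 and 11.23 (0.04, adjusted p = 0.968), and turned negative without control 1 (-0.11) or knockout 3 (-0.20).

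**Figure D3:**
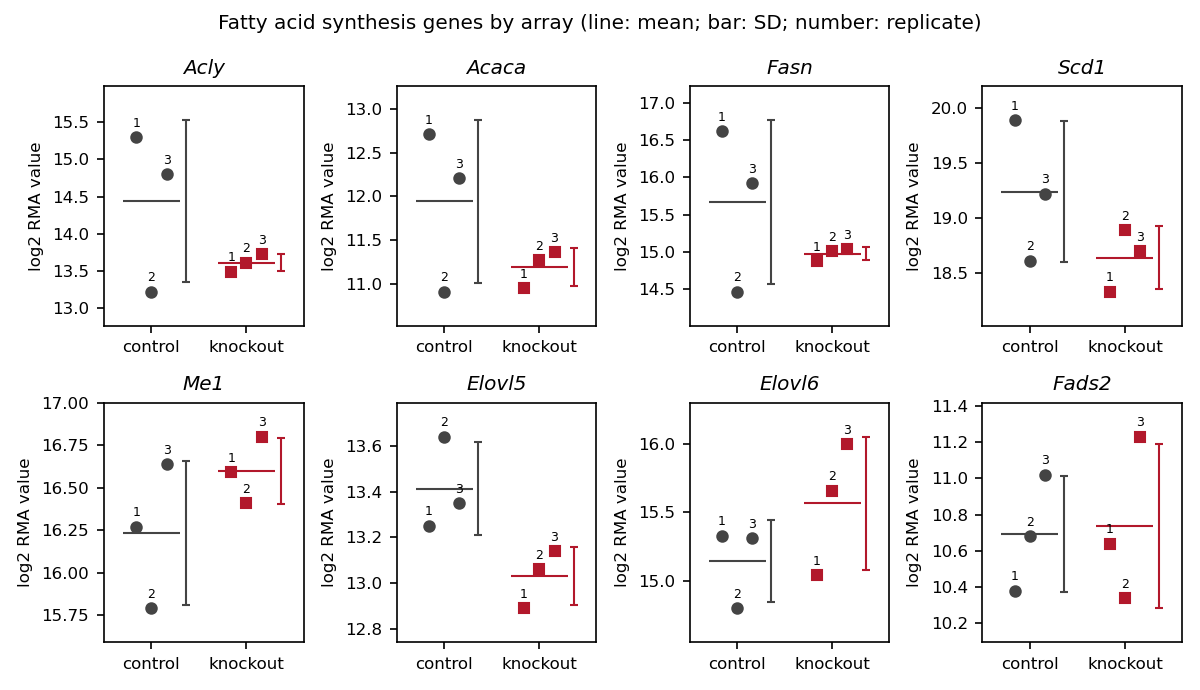
Log2 RMA values of 8 fatty acid synthesis genes on each array, with the group mean as a line, the SD as a bar and the replicate number beside each point. In Acly, Acaca and Fasn the knockouts lie between control 2 and control 3.

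The arms were then set against each other within each array. The fatty acid arm, relative to its control mean, stood at 0.23, -0.48 and 0.25 in controls and -0.47, -0.27 and -0.0027 in knockouts, so the groups overlapped. The sterol arm minus the fatty acid arm was -0.64, 0.47 and 0.17 in controls and 0.70, 1.08 and 1.24 in knockouts. Here every knockout stood above every control, by at least 0.23, while either arm alone overlapped. The mean difference was 1.01, with SDs of 0.58 in the controls and 0.28 in the knockouts (n = 3 each). It lay between 0.68 and 1.24 when 1 array at a time was left out. It was 0.57 among the 4 arrays with Y-linked signal and 1.89 between control 1 and knockout 3. Since the genes were chosen with results of these arrays known, the contrast is given without a p.

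**Figure D4:**
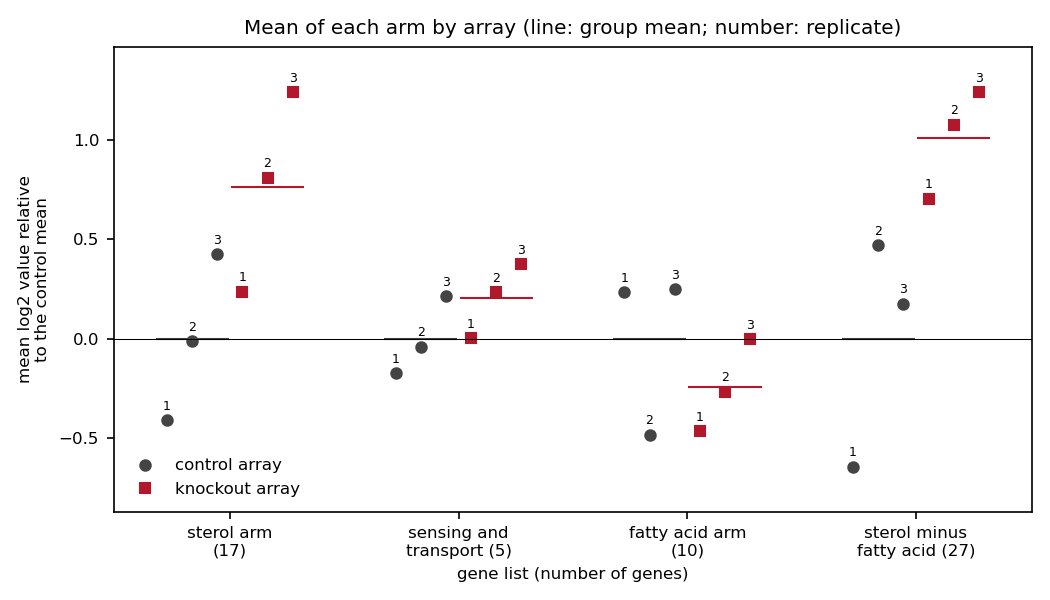
Mean log2 value of the sterol arm, the sensing and transport genes and the fatty acid arm on each array, relative to the control mean, and the difference between the arms. Lines are group means. The difference between the arms is the only column where the knockouts, 0.70 to 1.24, lie wholly above the controls, -0.64 to 0.47.

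Neighbouring genes of the same pathways were read from lists drawn up by function, and none of these genes passed limma's adjusted threshold either. Among 3 other sterol synthesis genes (median 0.23), Erg28, a scaffold of the demethylation complex, had all knockouts above all controls (0.66, adjusted p = 0.22). Lbr, a sterol reductase of the nuclear envelope, and Acat1, the mitochondrial thiolase, were at 0.23 and -0.11. Of 9 enzymes of protein prenylation, dolichol and ubiquinone synthesis 6 were positive (median 0.12), with the farnesyltransferase subunits Fnta and Fntb at 0.44 and 0.36 and the methyltransferase Icmt at 0.40. Of 8 genes of SREBP processing and reductase turnover 3 were positive (median -0.03). Erlin1, which restrains SREBP activation, was at 0.62, Faf2 at 0.18 and Aup1 at -0.24.

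Genes that take up, store and export cholesterol did not share the direction of the synthetic enzymes. Of 14 measured, 5 were positive (median -0.085). Nceh1, which hydrolyses cholesterol esters, had all knockouts above all controls (0.66, limma adjusted p = 0.243). The lipoprotein receptors Vldlr and Lrp1 were at -0.60 and -0.70 (adjusted p of 0.348 and 0.387). Of 6 oxysterol and bile acid enzymes 4 were positive (median 0.033). Cyp27a1, the sterol 27-hydroxylase, was at 0.76 (adjusted p = 0.452) but 0.27 without control 1, Cyp39a1 at -0.36 and Ch25h at -0.18, the last with values of 2.80 to 3.43, below the lower quartile of the arrays.

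Fatty acid genes outside the list went both ways. Of 23 other synthesis genes 11 were positive (median -0.03), with 6 higher and 5 lower at an unadjusted p under 0.05, against 6.61% and 6.13% of all probe sets. Hacd2, the dehydratase of chain elongation, measured 13.65, 13.58 and 13.36 in controls against 14.52, 14.66 and 14.37 in knockouts (0.99, SE 0.18, limma adjusted p = 0.0737). Mid1ip1, which helps acetyl-CoA carboxylase to polymerise, was at 1.37 (adjusted p = 0.124) and the elongase Elovl2 at 1.27 (adjusted p = 0.14). The 5 lower genes, named after their values were seen, were the dehydratases Hacd4 (-1.09) and Hacd1 (group means of 12.59 in controls and 11.58 in knockouts), the carboxylase Acacb (-0.88), Fads3 (-0.68) and Mlxipl (-0.60). All knockouts stood below all controls for each of them, against 8.78% of all probe sets, though picking genes by p favours such separation. Of 9 fatty acid activation and glycerolipid genes 2 were positive (median -0.28). The phosphatidate phosphatase Lpin1 was at -0.92 (adjusted p = 0.211), Acsl4 at -0.51 and Agpat2 at -0.95. Of 11 fatty acid oxidation genes 1 was positive (median -0.25). This was Cpt1a, the liver-type carnitine acyltransferase, at 0.71, while its muscle-type form Cpt1b was at -0.75 and Acadvl at -0.58.

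Markers of cell types that a lobe can hold shared the array order of the arms only in part, and their contribution to the results was not tested. All 12 adipocyte markers had negative differences (median -0.39), and their list mean relative to controls was 0.59, -0.42 and -0.17 in controls and -0.62, -0.28 and -0.61 in knockouts. The brown fat gene Ucp1, at 8.26, 13.83 and 10.91 in knockouts, weighed on these knockout means. Knockout 1, lowest by list mean, was the highest knockout for 7 of the 12 markers. The order of the controls, control 1 highest and control 2 lowest, was that of Acly, Acaca and Fasn. The knockouts did not share an order. Among them knockout 3 was highest for 9 of 10 genes of the fatty acid arm and lowest for 7 of 12 adipocyte markers. Squamous epithelium markers were positive in 8 of 10 (median 0.24), at -0.14, 0.001 and 0.14 in controls and 0.24, 0.26 and 0.86 in knockouts. The list was uneven, with Lor at 1.62, Sprr3 at 1.15, Dsc3 at 1.10, Dsg3 at 0.77 and Trp63 at 0.31. The keratins Krt5, Krt13 and Krt4 were at 0.09, 0.16 and 0.02. Krt14 was at -0.45 and Ivl at -0.25. By list mean control 1 was lowest and knockout 3 highest, as for the sterol arm. The sebaceous gland list given below shared this, with control 1 barely below control 2. Thyroid follicular markers were positive in 9 of 10 (median 0.99), at 0.54, 0.38 and -0.92 in controls and 1.38, 0.83 and 1.48 in knockouts. Slc5a5 had the largest difference, 4.83, with 8.00, 8.00 and 2.97 in controls, and weighed on these means. Tg was at 0.04 and Duoxa2, the negative gene, at -1.07. Slc26a4 read 2.37 to 3.12, below the lower quartile of the arrays. By follicular list mean control 3 was the lowest control, whereas it was the highest for the sterol arm. Knockout 3 was the highest array for both.

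Other marker lists were lower in the knockouts or split. Airway epithelium markers were negative in 8 of 8 (controls 0.50, -0.21 and -0.29; knockouts -1.14, -1.07 and -1.06) and skeletal muscle markers in 11 of 11 (controls 0.054, -0.081 and 0.027, knockouts -0.38, -0.36 and -1.15). Fibroblast markers were negative in 8 of 8 (median -0.94) and macrophage markers in 9 of 9 (median -0.43). All 3 parathyroid markers were negative, with Pth at 18.24, 19.68 and 17.02 in controls and 3.56, 18.61 and 10.06 in knockouts. All 3 C cell markers were negative as well, among them Chga, which parathyroid shares. Of 7 sebaceous gland markers 4 were positive (median 0.03), and Awat1, a wax ester enzyme that defines that gland, read 2.37 to 3.07, below the lower quartile of the arrays. The 3 negative genes of this list were Elovl3 (-0.67), Mogat1 (-0.24) and Mc5r (-0.13). Far2, which makes fatty alcohols for waxes, measured 7.66, 9.55 and 8.90 against 10.14, 10.01 and 10.92 (1.65, limma adjusted p = 0.172). Krt79 was also higher on all knockouts than on any control (0.55, adjusted p = 0.436). The sebaceous list mean relative to controls was -0.089, -0.077 and 0.17 in controls and 0.034, 0.17 and 0.41 in knockouts. Within each group this was the array order of the sterol arm, but controls 1 and 2 were nearly equal. Far2 weighed on their order, since its control 1 lay far below its control 2. Elovl3, Krt79 and Mc5r had control 1 above control 2. Of the 7 markers only 2 stood above the median probe set.

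**Figure D5:**
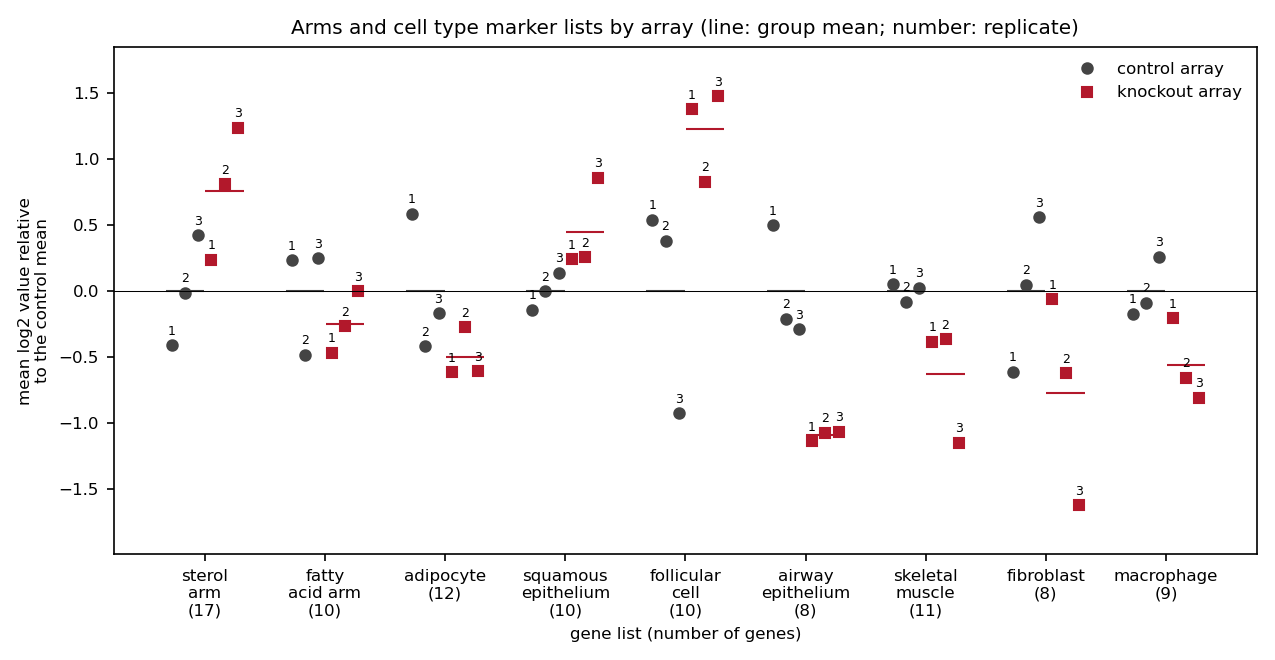
Mean log2 value relative to the control mean for both arms and 7 marker lists on each array, with group means as lines and the replicate number beside each point. The sterol arm and the squamous list have control 1 lowest and knockout 3 highest, and the adipocyte list has control 1 highest.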

How the data were processed

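Thyroid RNA of 6 mice (3 Foxe1flox/flox/Cre, 3 Cre controls, grouped by sample titles) had an integrity number of 7 or more, and 250 ng was labelled for an Affymetrix whole-transcript array, per the labels' protocols. Per the submitters' processing notes, the authors made the deposited log2 values by RMA, with Affymetrix Expression Console as software. The version and genome build are not stated in the sources. RMA equalises the arrays, so a change shared by most transcripts is removed. Of 22206 probe sets, 19572 carried 1 symbol in the platform annotation, 0 several, and 2634 are unnamed here. All probe sets were fitted with limma 3.58.1 in R 4.3.3 (two-sided, Benjamini-Hochberg over all probe sets, threshold 0.05), and differences are knockout minus control. In simulated data for this comparison with 22206 probe sets it recovered 18% of changes of 1 log2 unit and 92% of changes of 2. The simulated variances were drawn from the spread that limma fitted to all probe sets. The sterol enzymes had a median SE of 0.37, against 0.22 over all probe sets, so these shares need not hold for them.

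The members, lists and rule for named genes (all members, the 3 smallest p of each related list, or up to 4 past the threshold) were chosen with earlier results of these data known. Arms are described by counts and medians, with no p. Over all probe sets the median was -0.02, and 0.02 after median centring. RefSeq promoters (GRCm38.p6) were matched by symbol for 26 of the 32 members. Over all probe sets, same-numbered arrays did not deviate together (correlations -0.009, 0.076 and 0.017), so replicate numbers were not used as pairs. The sterol arm means, in contrast, rose from replicate 1 to replicate 3 in both groups.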

Additional observations from a re-analysis of the deposited data

How the results depend on the processing

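Over the settings tried, the sterol arm's median difference stayed positive (0.41 to 1.16), the fatty acid arm's negative (-0.46 to -0.25) and the contrast of the arms positive (0.57 to 1.24). The count of members past an adjusted p of 0.05 was 0 throughout, except for 1 with the replicate block (Hsd17b7, 1.52, limma adjusted p = 0.0476, with a range of 0.0476 to 0.481 over its alternatives). It was 1 at a threshold of 0.1 and 6 at 0.2. The block raised the count higher at an unadjusted p under 0.05 from 11 to 13. The numbers share no known source, and not every array correlated best with its own number. With an ordinary t statistic the count higher was 6. The count lower was 1 with array weights and 1 with renewed quantile normalization. Leaving out 1 array at a time gave 6 to 14 higher and 0 to 5 lower.

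Without the arrays of low Y-linked signal, a setting chosen after seeing the data, 5 members were higher and the sterol arm's median was 0.41. Among the differences that shrank but kept their sign were Hsd17b7 (0.955), Msmo1 (0.755), Idi1 (0.635), Acly (-0.46), Scd1 (-0.305) and Fasn (-0.25). The differences then turned for Mvd (-0.06), Ebp (-0.365), Dhcr7 (-0.55), Stard4 (-0.165), Fads1 (-0.29), Fads2 (-0.36), Fntb (-0.185) and Acat1 (0.065). Array weights turned Dhcr7 (-0.090) and Fads2 (-0.10), and quantile normalization turned Fads2 (-0.0031). With 1 array left out, values ran from -0.24 to 0.58 for Dhcr7, -0.11 to 0.61 for Ebp, -0.20 to 0.24 for Fads2, -0.048 to 0.56 for Fads1, -0.017 to 0.068 for Insig2 and -0.335 to 0.055 for Acat1. None of the 9 genes whose sign turned passed the threshold in any setting. Without those arrays fewer samples remain, and the cause of the other turns was not tested. Signal over background was not measured for the members, all of which stood above the median probe set.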

Other observations

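Among the fatty acid elongation genes outside the main list, 4 elongases read higher on all knockout arrays than on any control, and none passed adjustment. They were picked here after their values were seen. Of 7 measured Elovl genes, 4 had all knockouts above all controls, against 9.28% of probe sets, and 1, Elovl5, had all below. Elovl4, which makes the longest chains of skin and retina, measured 12.17, 13.95 and 13.94 in controls against 14.45, 14.84 and 15.52 in knockouts (1.58, SE 0.48, limma adjusted p = 0.211). Its low control was control 1, as for most sterol enzymes, and the difference without that array was 0.99. Elovl7 measured 12.07, 12.14 and 11.64 against 12.81, 12.58 and 13.38 (0.97, adjusted p = 0.156). Elovl1 measured 14.61, 15.34 and 15.55 against 15.59, 15.79 and 16.47 (0.78, adjusted p = 0.337). Elovl2 measured 6.29, 6.79 and 5.76 against 7.06, 7.82 and 7.78. Elovl3, another elongase of very long chains, differed the other way, at 5.78, 4.36 and 3.97 against 3.88, 4.66 and 3.55 (-0.67, limma adjusted p = 0.606; -0.135 without control 1). Squamous markers, whose list mean but not every gene was also higher in the knockouts, are given above, and their part in these values was not tested.

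Some genes that work beside Acly and Fasn had the same order of controls, again as seen after the fact. The order control 1, control 3, control 2 from high to low was that of 5 of 10 genes of the fatty acid arm, 9 of 23 other synthesis genes and 3 of 9 activation and glycerolipid genes. The share of all probe sets with this order was not computed, so these counts do not show that it is particular to such genes. Thrsp, a lipogenic cofactor, measured 15.39, 13.06 and 14.36 in controls against 13.05, 13.61 and 13.43 in knockouts. Slc25a1, which exports citrate from mitochondria, measured 14.65, 13.72 and 14.57 against 13.41, 14.01 and 13.95. Agpat2, of triglyceride synthesis, measured 14.82, 13.09 and 13.88 against 12.47, 13.35 and 13.13. In each of these control 1 was highest and control 2 lowest of the controls, as for the adipocyte list mean. Mid1ip1, a relative of Thrsp, had the opposite order, at 9.54, 10.30 and 10.07 in the controls.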
